A study of Mus musculus with 6 samples.

Results

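The genes described here are the Wnt ligands, their Frizzled receptors, their co-receptors and the proteins that prepare the ligands for secretion, in AML12 cells with and without over-expressed Zac1. They were chosen by gene symbol from the deposited count table: every Wnt ligand and every Frizzled gene, plus Lrp5, Lrp6, Ror1, Ror2, Ryk, Porcn and Wls. The rule found 36 of 49585 counted genes, namely 19 ligands, 10 Frizzled receptors, 5 co-receptors and 2 ligand-processing genes. The family was put forward when fold changes of Zac1 against EGFP were already known, so those fold changes and their p-values are given as a description and support nothing further.

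AML12 is an immortalised mouse hepatocyte line. In the Zac1 group the cells carried an over-expression construct with the open reading frame of Zac1, a transcription factor with zinc fingers whose gene, Plagl1, is imprinted. The control group carried the same kind of construct with EGFP, a fluorescent protein. RNA was taken 24 h after transfection and polyA RNA was sequenced, with 3 libraries per group (EGFP 1, 2 and 3; Zac1 4, 5 and 6). The sources used here give neither the promoter of the constructs nor the share of cells that took them up. They also do not say whether a group's libraries come from separate cultures, so the p-values reflect the spread between these libraries alone, which may be technical.

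Library totals ran from 14801240 to 15145092 reads in EGFP and from 16104498 to 18302538 in Zac1. Plagl1 was read 39 to 79 times per EGFP library and 106033 to 148382 times per Zac1 library, so the construct was expressed in the libraries labelled with it. The second principal component, with 20.2% of the variance, set EGFP 1 and Zac1 4 apart from the other 4 libraries. Hepatocyte markers were present only in part. Apob, Hnf4a and Alb were among those well expressed, while 6 of 12 had a mean level below 1 CPM (reads per 1000000 reads of the library). Cholangiocyte markers summed to 757 to 822 CPM per library for 6 genes, among them Krt19 and Spp1. Of these 6, 1 (Epcam) had a mean level below 1 CPM. The 12 hepatocyte markers summed to 1527 to 1906 CPM. Most of the hepatocyte sum was Apob, which averaged 1356 CPM in EGFP and 1271 CPM in Zac1, while Alb averaged 34.7 CPM in each group. In bulk RNA, fewer cells that express a gene and less RNA of that gene per cell cannot be told apart.

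Wnt proteins are secreted, lipid-modified signals. Porcn attaches the lipid and Wls carries the ligand to the cell surface; a Frizzled receptor then binds it, together with Lrp5 or Lrp6 in the branch that stabilises beta-catenin, or with Ror1, Ror2 or Ryk in other branches. In liver, beta-catenin signalling sets the gene programme of hepatocytes around the central vein, and Wnt2 and Wnt9b from endothelial cells of that zone are known sources.

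Of the 36 genes, 21 had a mean of at least 10 reads over the 6 libraries and were tested, 15 were below that minimum, and 2 of those 15 (Wnt8a and Wnt8b) had no read in any library. The tested genes were 8 ligands, 7 Frizzled receptors, 4 co-receptors and both processing genes. By edgeR's quasi-likelihood test with Benjamini-Hochberg adjustment over all 12130 tested genes, 4 rose with Zac1 (the ligands Wnt6, Wnt10b and Wnt7b and the receptor Fzd5) and 0 fell. Over all tested genes 3.12% were called higher, 0.668% lower and 3.78% in either direction. Of the 21 log2 fold changes 15 lay above 0, against 49.5% over all tested genes; with the choice of members already informed by this contrast, nothing is read from either count. At an unadjusted p under 0.05 there were 9 higher and 0 lower, against 9.41% and 6.43% of all tested genes. DESeq2 likewise called 4 higher and 0 lower, with Wnt10a in place of Fzd5, against 2.75% and 0.775% of all. Wnt6 and Wnt10b reached the count minimum only through their Zac1 reads, so they had to differ. Wnt5b, whose EGFP mean was also under that minimum, was likewise tested only through its Zac1 reads. The 18 genes with a mean of at least 10 reads in EGFP alone are free of that: 2 of them were higher, 12 fold changes lay above 0 and 6 below, and their median log2 fold change was 0.18. Among the 11865 genes of the table that met the same condition, 2.28% were called higher and the median was -0.005.

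Promoter sequences are shown for 4 members on which the results turn: Wnt6 and Wnt10b, near silent in EGFP, Fzd5, the called receptor, and Wnt4, an abundant ligand with no call. They are RefSeq start-site windows of 300 bases on GRCm38.p6, from 250 bases before the start site to 50 after it, written 5′ to 3′ on the gene's strand. Capitals mark GGGCGG, the GC box, or its complement CCGCCC; overlapping matches run together. Wnt6 lies on the plus strand (chr1:74771642-74771941), Wnt10b on the minus strand (chr15:98778101-98778400), Fzd5 on the minus strand (chr1:64737701-64738000) and Wnt4 on the plus strand (chr4:137277385-137277684).
Wnt6: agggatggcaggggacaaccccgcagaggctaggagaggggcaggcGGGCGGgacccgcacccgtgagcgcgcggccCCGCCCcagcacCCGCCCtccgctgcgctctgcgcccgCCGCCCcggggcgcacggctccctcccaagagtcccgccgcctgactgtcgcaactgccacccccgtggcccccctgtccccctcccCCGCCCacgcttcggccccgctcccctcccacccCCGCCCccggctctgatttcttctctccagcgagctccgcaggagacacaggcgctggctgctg
Wnt10b: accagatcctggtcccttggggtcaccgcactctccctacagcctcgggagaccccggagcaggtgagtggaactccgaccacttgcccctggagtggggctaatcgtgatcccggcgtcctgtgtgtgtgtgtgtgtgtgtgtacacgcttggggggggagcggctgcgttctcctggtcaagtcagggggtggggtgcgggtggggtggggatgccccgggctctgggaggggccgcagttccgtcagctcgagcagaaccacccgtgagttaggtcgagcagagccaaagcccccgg
Fzd5: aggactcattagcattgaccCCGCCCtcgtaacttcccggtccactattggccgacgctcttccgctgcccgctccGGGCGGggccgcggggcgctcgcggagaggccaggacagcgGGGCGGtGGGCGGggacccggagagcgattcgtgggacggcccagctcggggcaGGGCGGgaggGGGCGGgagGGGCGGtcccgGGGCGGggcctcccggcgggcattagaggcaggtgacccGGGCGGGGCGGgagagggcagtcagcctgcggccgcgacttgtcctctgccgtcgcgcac
Wnt4: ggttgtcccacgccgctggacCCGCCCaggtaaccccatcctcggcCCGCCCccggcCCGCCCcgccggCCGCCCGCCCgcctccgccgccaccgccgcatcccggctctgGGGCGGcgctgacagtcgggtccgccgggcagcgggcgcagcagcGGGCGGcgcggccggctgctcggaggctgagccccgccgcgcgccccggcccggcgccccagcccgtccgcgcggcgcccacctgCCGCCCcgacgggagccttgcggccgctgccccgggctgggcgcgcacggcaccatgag
The Wnt6 window holds 6 GC boxes, the Wnt10b window 0, the Fzd5 window 10 and the Wnt4 window 8. GC content was 76.7%, 66.3%, 75.7% and 84.3% in that order. RefSeq windows were found for 25 of the 36 genes (28 windows). Wnt7b and Wnt10a were among the genes without a window, so their promoters were not searched. Those 28 had a median GC content of 71% and a median of 30 CpG dinucleotides, against 52.7% and 7 over all 32851 windows, and a GC box was found in 23 of the 28, against 35.7% of all windows. The palindrome GGGGCCCC, described for Zac1 binding, was found in 0 of the 28 and in 1.08% of all windows. The TCF motif CTTTGAT, or its complement ATCAAAG, was found in 2 of the 28, in windows of Wnt11 and Wnt5b, and in 3.73% of all. All motifs were searched on both strands, and a match is a description of letters only.

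Wnt6 (chromosome 1, 74771892 to 74785322, plus strand, GRCm38) encodes a ligand best known from epithelia and kidney development. It was read 1, 1 and 0 times in EGFP 1, 2 and 3, and 46, 60 and 83 times in Zac1 4, 5 and 6. Each Zac1 library thus lay far above each EGFP library. The ratio of summed reads, corrected for library size, was 82.1 (exact 95% Clopper-Pearson interval 22.4 to 683, counting error only), and the edgeR adjusted p was 8.9e-06. With a library left out the ratio ran from 54.9 to 109.

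Wnt10b (chromosome 15, 98770712 to 98778150, minus strand) encodes a ligand known for restraining fat cell formation. Reads numbered 0, 1 and 0 in EGFP and 20, 38 and 15 in Zac1, so again the groups did not overlap, with Zac1 5 the highest. The ratio was 63.4 (95% interval 11 to 2539; edgeR adjusted p = 0.00134). Its only EGFP read came from EGFP 2; without that library the ratio is a lower bound, at least 14.1-fold. Without Zac1 5 Wnt10b fell under the count minimum and was not tested. With every library thinned to 14801240 reads, the summed reads were 2 and 166 for Wnt6 and 1 and 62 for Wnt10b.

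Of the 14 members with at most 3 reads over the EGFP group, Wnt6 and Wnt10b were the 2 that reached the count minimum. Over all genes counted, 21 of 34271 with so few EGFP reads did (0.0613%). That base is mostly made of 27821 genes with no read in any library, while 2 of the 14 members had none. The members were also chosen with this contrast known, so nothing is read from these counts.

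Wnt7b (chromosome 15, 85535437 to 85582473, minus strand), a ligand of lung and kidney epithelia, was the third ligand called, and it was already well expressed. Its level was 21.7, 18.9 and 19.7 CPM in EGFP and 29.1, 31.4 and 29.2 CPM in Zac1. All Zac1 libraries were above all EGFP libraries. It rose 1.49-fold, from 20.1 ± 1.44 to 29.9 ± 1.28 CPM (SD, n = 3; log2 fold change of 0.57 with an SE of 0.08, edgeR adjusted p = 0.00113), and its adjusted p was at most 0.0151 over 17 alternatives. An antisense gene, AU022754, shares 324 exon bases with Wnt7b and had 81 reads in all 6 libraries together. It is not stated whether the counting used strand, so reads of the shared stretch cannot be told apart.

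Wnt10a and Wnt7a, both abundant, lay just outside the threshold. Wnt10a, a ligand of skin and tooth development, was at 94.6, 95.6 and 92.4 CPM in EGFP and at 101, 114 and 120 CPM in Zac1. The groups did not overlap, but Zac1 4 stood closest to EGFP. Its log2 fold change was 0.24 (SE 0.06, edgeR adjusted p = 0.0514), and it passed in 8 of 17 alternatives, among them DESeq2 (adjusted p = 0.0468) and the fit without Zac1 4 (0.0023). With offsets for GC content it did not pass and its log2 fold change was 0.11 (adjusted p = 0.259), and without Zac1 6 it was 0.19 (0.253). Wnt7a was at 42.9, 43.5 and 44.5 CPM in EGFP and at 49.9, 49.3 and 52.7 CPM in Zac1, also without overlap (log2 fold change 0.22, SE 0.06, adjusted p = 0.0848). Just inside the threshold was Fzd5, at 0.0428.

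Wnt4, a ligand of kidney and reproductive tract development, was the abundant ligand that did not follow this direction. It was at 70, 73.7 and 68 CPM in EGFP and at 62.7, 68.7 and 71.6 CPM in Zac1, so the groups overlapped. Its log2 fold change was -0.06, and 2 SE each way gave -0.19 to 0.07. Wnt9a overlapped as well, with 5.26 ± 0.877 CPM in EGFP, 6.68 ± 1.17 CPM in Zac1 and a log2 fold change of 0.35 with an SE of 0.17 (adjusted p = 0.348). Wnt5b, a ligand of beta-catenin-independent signalling, was read 15, 4 and 7 times in EGFP and 22, 16 and 31 times in Zac1. After scaling to library size the groups overlapped, since EGFP 1 (0.999 CPM) was above Zac1 5 (0.94 CPM). Its log2 fold change was 1.19 (SE 0.42, adjusted p = 0.161), and it passed without EGFP 1 (0.037), the EGFP library with the most Wnt5b reads. In both fits the EGFP mean of Wnt5b was under the count minimum, so it was tested only through its Zac1 reads. The summed-read ratio of Wnt5b was 2.31 (95% interval 1.45 to 3.77), and 3.62 without EGFP 1.

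**Figure D1:**
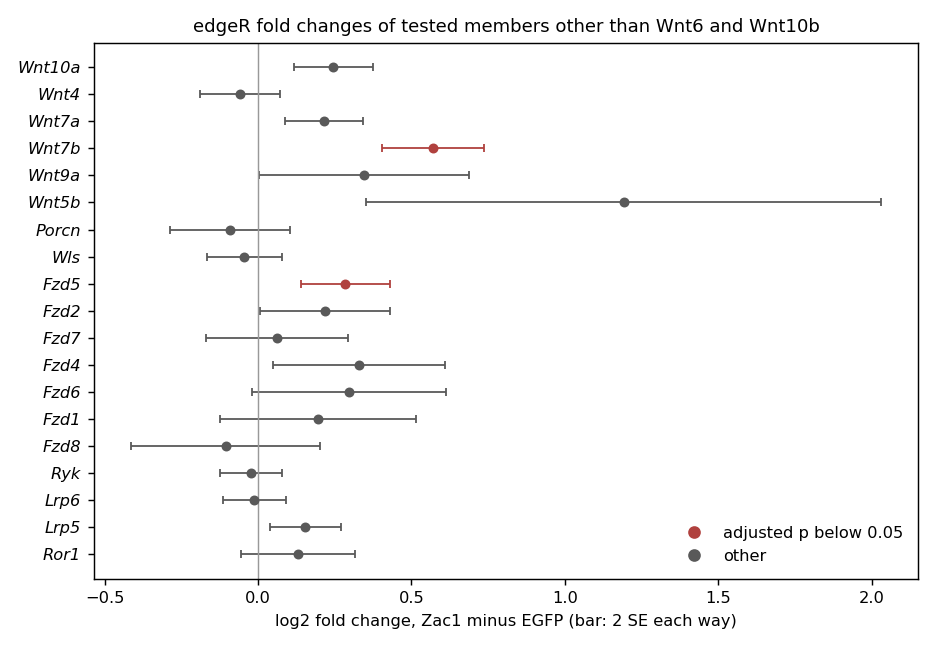
Log2 fold change of Zac1 minus EGFP (x axis) for 19 tested members, grouped as ligands, processing genes, Frizzled receptors and co-receptors from top to bottom; points are edgeR estimates, bars are 2 SE each way, and red marks an adjusted p below 0.05. Wnt7b (0.57) and Fzd5 (0.28) are red, Wnt5b (1.19) has the widest bar, and Wnt6 and Wnt10b are left out because their estimates depend on the prior count.

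Of the 15 genes below the count minimum, 11 had more reads in Zac1 than in EGFP, 2 had more in EGFP and 2 had none. The counts 11 and 2 were the same after thinning every library to the same depth. Over the 9634 genes of the table below the minimum with at least 1 read, 54% had more thinned reads in Zac1 and 35.5% more in EGFP. In all, these 15 members held 23 reads in EGFP and 150 in Zac1.

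Ligands with no read in EGFP and reads in each Zac1 library numbered 3. The share of all genes below the minimum with this pattern was not counted, so nothing is read from that number. Wnt11, which acts in cell movement during development, had 7, 8 and 7 reads in Zac1 4, 5 and 6, at least 6.37-fold higher against a floor of 3 reads over the EGFP group. Wnt9b, a ligand of kidney tubules and liver endothelium, had 3, 7 and 5 reads, at least 4.34-fold higher. Wnt3, a ligand of the early body axis, had 2, 1 and 1 reads, close to the floor of 3, and is not given a fold. All 3 levels are low, and at this depth a few reads decide them.

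Wnt2 and Wnt2b had reads in both groups. Wnt2, like Wnt9b a ligand of liver endothelium, had 5, 2 and 1 reads in EGFP and 8, 14 and 11 in Zac1, a ratio of 3.58 (95% interval 1.62 to 8.98), or 6.35 without EGFP 1. Wnt2b, a ligand of lung and eye development, had 0, 0 and 2 reads in EGFP and 5, 11 and 12 in Zac1, a ratio of 12.2 (3.07 to 105), or at least 5.42-fold higher without EGFP 3, which held both EGFP reads. For both genes every Zac1 library was above every EGFP library, a pattern whose share among all genes below the minimum was not counted.

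Other members were seen in some libraries only. Wnt1 had 0 reads in EGFP and 0, 7 and 3 in Zac1, Wnt16 had 0 in EGFP and 1, 5 and 0 in Zac1, and Wnt3a had 1 in EGFP 3 and 3, 5 and 0 in Zac1. Fzd10 had 0 reads in EGFP and 0, 1 and 5 in Zac1. Zac1 5 held the most reads of Wnt1, Wnt16 and Wnt3a, and Zac1 6 those of Fzd10. Wnt5a, the main ligand of beta-catenin-independent signalling in many tissues, had 4 reads in EGFP and 6 in Zac1 (ratio 1.3, 95% interval 0.309 to 6.28). That ratio was 3.46 without EGFP 1, 0.869 without EGFP 2 and 0.947 without Zac1 4, so it gives no direction. Fzd9 had 6 and 12 (1.74, 0.603 to 5.64). Fzd3 and Ror2 each had 1 read in EGFP and 0 in Zac1, which allows up to 3 reads over the Zac1 group, so no difference was detectable for them.

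**Figure D2:**
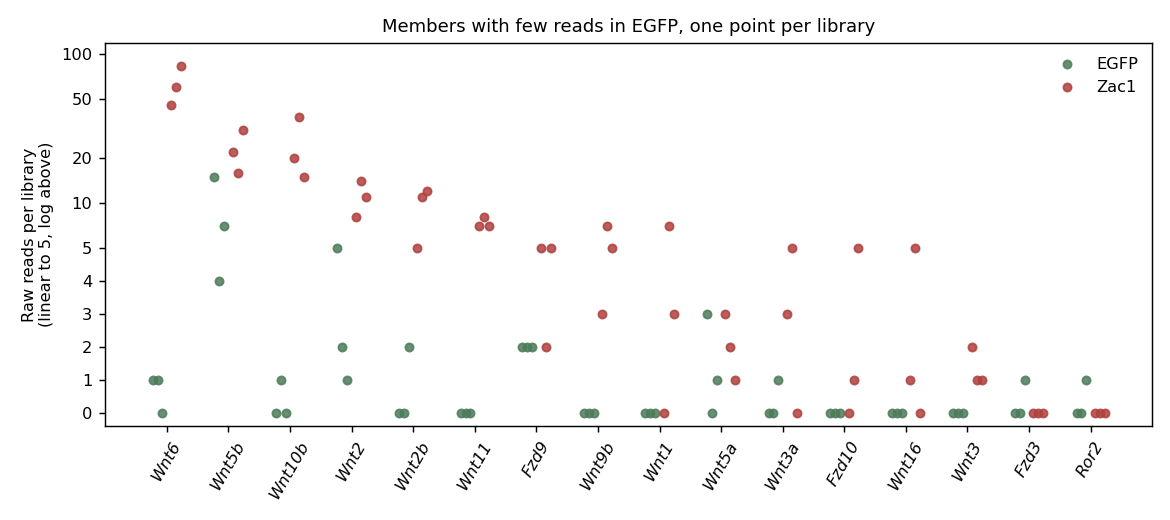
Raw reads per library (y axis, linear to 5 and logarithmic above) for the 16 members with few EGFP reads that had any read at all; green points are EGFP libraries and red points Zac1 libraries. Wnt6 (46 to 83 reads) and Wnt10b (15 to 38) stand clear of their EGFP reads, which are 0 or 1, while the Wnt5a reads overlap and those of Wnt5b (15 at most in EGFP, 16 at least in Zac1) lie next to each other.

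Among the Frizzled receptors 1 of 7 tested genes passed. Fzd5, the most read of them, was at 36.8, 33.3 and 32.4 CPM in EGFP and at 41.9, 42.9 and 40.1 CPM in Zac1. The groups did not overlap, and the gene rose 1.22-fold (log2 fold change 0.28, SE 0.07, edgeR adjusted p = 0.0428). That call was lost in 8 of 17 alternatives: without EGFP 2 (0.12), EGFP 3 (0.242), Zac1 5 (0.229) or Zac1 6 (0.0906), with GC offsets (0.0679), with DESeq2 (0.0631), with genes limited to a mean of 50 reads or more (0.0595), and under median-of-ratios scaling (0.0514). In those 8 the log2 fold change lay between 0.24 and 0.31. Fzd5 shares 1233 exon bases with the opposite-strand gene Gm38058, which had 9 reads in all libraries.

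The other 6 tested Frizzled genes did not pass. Fzd2 went from 11.6 ± 1.02 to 13.5 ± 0.387 CPM and Fzd6 from 4.97 ± 0.583 to 6.09 ± 0.819 CPM (SD, n = 3), both without overlap between the groups (adjusted p = 0.337 and 0.391). Fzd4, a receptor of retinal vessels, was at 11.4, 14.2 and 17.6 CPM in EGFP and at 16.8, 20.7 and 16.8 CPM in Zac1, with overlap (log2 fold change 0.33, SE 0.14, adjusted p = 0.259). Fzd1 (0.2), Fzd7 (0.06) and Fzd8 (-0.11) overlapped too. Fzd8, at -0.11 (2 SE each way: -0.41 to 0.2), was the tested Frizzled gene with a log2 fold change below 0.

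Among co-receptors 0 of 4 tested genes passed. Lrp5 was at 119, 114 and 117 CPM in EGFP and at 121, 130 and 138 CPM in Zac1, without overlap (log2 fold change 0.15, SE 0.06, adjusted p = 0.192; 0.0331 without Zac1 4). Its partner in function, Lrp6, was at 207 ± 9.02 and 205 ± 5.65 CPM (log2 fold change -0.01; 2 SE each way: -0.12 to 0.09). Ryk, a receptor with an inactive kinase domain, was at 125 ± 3.72 and 123 ± 1.45 CPM (-0.02; -0.12 to 0.08). Ror1 was at 21.3 ± 2.1 and 23.4 ± 1.38 CPM (0.13, SE 0.09, adjusted p = 0.541). Its relative Ror2 was the near-absent co-receptor. The intervals of Lrp6 and Ryk reach no further than 0.12 on the log2 scale in either direction.

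The ligand-processing genes did not pass either. Porcn, the acyltransferase of the secretory pathway, was at 32.1, 42.2 and 38.2 CPM in EGFP and at 32.2, 38.4 and 34.9 CPM in Zac1. Wls, the carrier, was at 83.8, 77.2 and 82.2 CPM in EGFP and at 83, 78.2 and 74.7 CPM in Zac1. Both overlapped between groups, with log2 fold changes of -0.09 (2 SE each way: -0.29 to 0.1) and -0.04 (-0.17 to 0.08).

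Counting the tested members by overlap, 9 of 21 had every Zac1 library above every EGFP library and 0 had every one below. Over all tested genes these shares were 11.9% and 8.75%. With the 18 genes expressed in EGFP the count was 7, and the share over all genes with that EGFP level was 10.7%.

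Levels of different genes were compared per length, as CPM per kilobase of merged exons. In EGFP the ligand Wnt10a was the highest member at 38.2 ± 0.652, followed by Ryk at 27.5 ± 0.82, Wnt4 at 16.8 ± 0.69, Lrp6 at 15.1 ± 0.66 and Wnt7a at 13.8 ± 0.259 CPM per kilobase (SD, n = 3). Neighbours in this order down to Wnt7a did not overlap between libraries. Wnt7a, Porcn (12.5 ± 1.69) and Lrp5 (12 ± 0.239) were not separated from their neighbours beyond the spread. Wls followed at 9.22 ± 0.393, and Fzd5, the highest Frizzled gene, at 4.94 ± 0.332. Wnt7b, Ror1, Fzd2 and Fzd7 lay between 4.1 and 2.84, where each overlapped with the next. The Zac1 levels of Wnt6 (1.66 ± 0.379 CPM per kilobase) and Wnt10b (0.421 ± 0.214) stayed far below that of Wnt10a in the same libraries (45.2 ± 3.96).

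**Figure D3:**
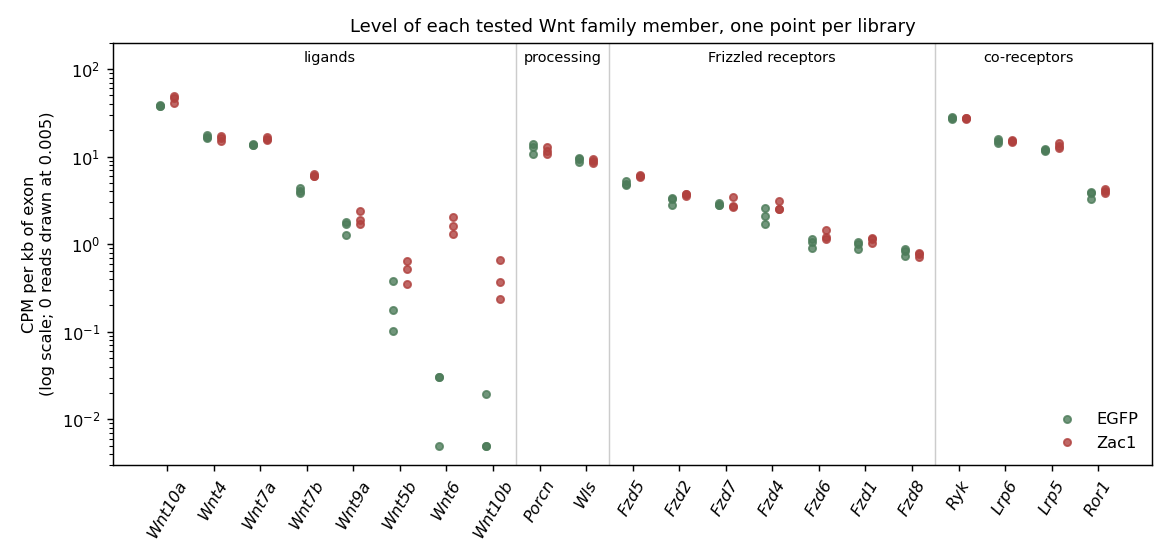
Level of each of the 21 tested members in CPM per kilobase of exon (y axis, log scale, libraries with 0 reads drawn at 0.005), one point per library, with EGFP in green and Zac1 in red. Most members keep their place between the groups; Wnt6 and Wnt10b move from near 0 to 1.66 and 0.421 CPM per kilobase on average, and Wnt10a is the highest in both groups.

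The makeup of the ligand reads followed from these values. Wnt10a, Wnt4, Wnt7a and Wnt7b made up nearly all of them. Wnt10a held 40.1 ± 0.113% of the ligand reads in EGFP and 40.5 ± 1.04% in Zac1 (SD, n = 3), or 51% and 50.9% per kilobase. Wnt4 held 30 ± 0.79% and 24.6 ± 0.19%, a smaller share in each Zac1 library than in any EGFP library, while its own level overlapped between the groups. Wnt7b held 8.57 ± 0.644% and 10.9 ± 0.674%, and Wnt6 0.0188 ± 0.0163% and 1.31 ± 0.227%. The 19 ligands together came to 235 ± 3.59 CPM in EGFP and 275 ± 17.4 CPM in Zac1, and the 10 Frizzled genes to 87.2 ± 1.97 and 102 ± 2.99 CPM. The 5 co-receptors came to 469 ± 9.91 and 481 ± 2.47 CPM. The 2 ligand-processing genes went the other way on average, with 119 ± 2.32 CPM in EGFP and 114 ± 3.64 CPM in Zac1. Among the Frizzled genes Fzd5 held 39.3 ± 3.47% and 40.7 ± 1.73% of reads.

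**Figure D4:**
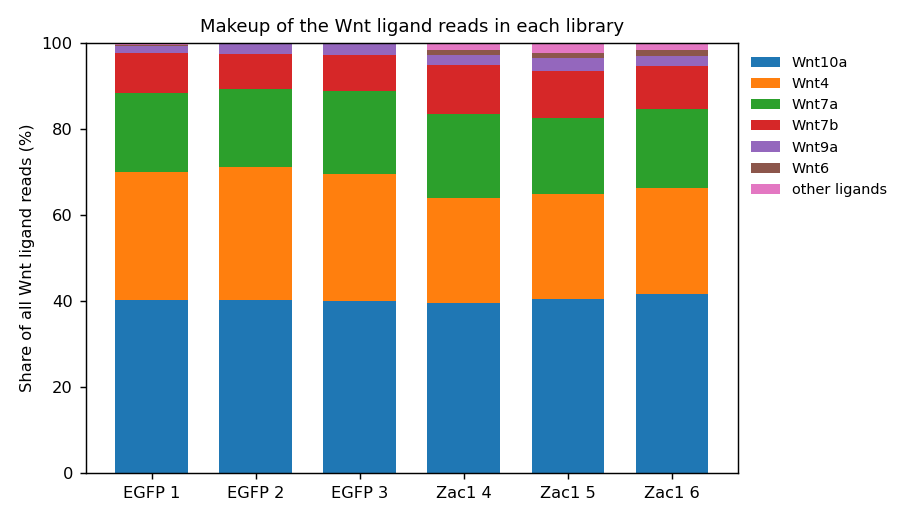
Share of all Wnt ligand reads (y axis, percent) in each of the 6 libraries, as stacked bars for 6 named ligands and all other ligands together. Wnt10a keeps about the same share in all libraries, Wnt4 goes from 30% on average in EGFP to 24.6% in Zac1, and Wnt6 is visible in the Zac1 bars only.

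Some ligand genes are neighbours in the genome, in 4 pairs. On chromosome 1, Wnt6 lies 6.19 kb upstream of Wnt10a on the same strand; Wnt10a was the most read ligand in EGFP and Wnt6 had 2 reads there. On chromosome 15, Wnt10b and Wnt1 are 11.7 kb apart in opposite directions, with 1 and 0 reads in EGFP and 73 and 10 in Zac1. On chromosome 11, Wnt9b and Wnt3 (24.3 kb apart) had 0 reads each in EGFP and 15 and 4 in Zac1, and Wnt9a and Wnt3a (16.2 kb apart) had 235 and 1 in EGFP and 344 and 8 in Zac1.

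Other genes of the pathway were read from 6 lists, which hold 111 different genes found in the table, 69 of them tested. Of these, 5 rose and 0 fell, against 3.12% and 0.668% of all tested genes. Notum, 1 of the 5, had no EGFP read and reached the count minimum only through Zac1, so it had to differ; the EGFP mean of Axin2 was also just under that minimum. Of 18 genes of the destruction complex and Dishevelled, all tested, 1 rose and 0 fell (median log2 fold change -0.02, against -0.002 over all tested genes). It was Axin2, a scaffold of the complex that beta-catenin itself induces, with 13, 8 and 8 reads in EGFP and 74, 73 and 88 in Zac1. It averaged 0.648 ± 0.189 CPM in the EGFP libraries and 4.56 ± 0.253 CPM in those of Zac1 (SD, n = 3). It rose 6.96-fold (log2 fold change of 2.80 with an SE of 0.25, adjusted p = 2.06e-05).

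Of 9 tested secreted and membrane modulators 1 rose and 0 fell (median 0.11). It was Notum, a secreted enzyme that removes the lipid from Wnt ligands, with 0 reads in EGFP and 16, 23 and 23 in Zac1, at least 18-fold higher. Of 9 tested feedback targets of beta-catenin, the same Axin2 and Notum rose and 0 fell (median 0.06), while Rnf43, which removes Frizzled from the membrane, had 1766 and 1991 reads in all (ratio 0.979, 95% interval 0.918 to 1.04). Abundant feedback targets did not pass: Ccnd1, a cyclin, was at 1583 and 1690 CPM on average (adjusted p = 0.261), Cd44 at 337 and 349, Myc at 171 and 174 and Znrf3 at 51.1 and 51.2 CPM. Several others were near 0. Sp5, Nkd2, Apcdd1 and Dkk1 had no read, Nkd1 had 1 read in Zac1, Lef1 5 reads in Zac1 and 0 in EGFP, and Lgr5 3 in EGFP and 15 in Zac1 (ratio 4.34, 1.23 to 23.4).

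Of 13 tested TCF/LEF factors and nuclear partners, 2 rose and 0 fell (median 0.07). Tcf7l1, which represses Wnt targets in the absence of a signal, rose 4.87-fold from 1.1 ± 0.4 to 5.36 ± 0.76 CPM (adjusted p = 0.000103). Bcl9l, a co-activator of beta-catenin, rose 1.43-fold from 35.6 ± 1.56 to 50.9 ± 3.91 CPM (adjusted p = 0.00109). Of 5 tested pericentral liver targets, Axin2 was again the gene that rose and 0 fell (median -0.09); Glul, glutamine synthetase, had a log2 fold change of -0.09 (adjusted p = 0.364). Of 21 tested genes of planar cell polarity and other branches, Vangl2, a core polarity protein, rose 1.35-fold from 16.4 ± 0.704 to 22.2 ± 1.51 CPM (adjusted p = 0.0131), and 0 fell (median -0.05). The Vangl2 call was lost without EGFP 3 (0.0897) or Zac1 6 (0.0893). Axin2 sits on 3 of the lists and Notum on 2. Some tested list genes without a call also did not overlap between the groups. Ctnnb1 (beta-catenin), Csnk1g3, Glul, Invs, Fuz and Rhoa had every Zac1 library below every EGFP library. Amer1, Btrc, Lgr6 and Ccnd1 had every one above. Over all tested genes 8.75% lay below in this way and 11.9% above.

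**Figure D5:**
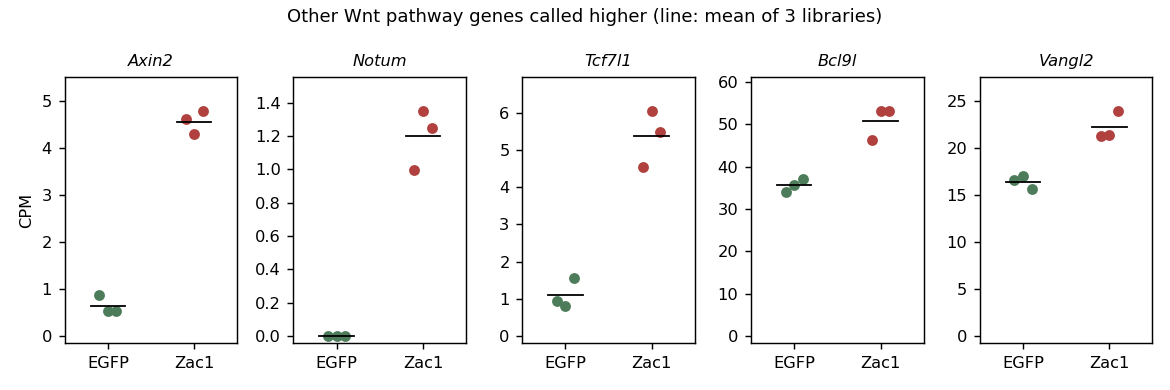
CPM (y axis, including 0, with a separate scale per gene) in the 3 EGFP and 3 Zac1 libraries for the 5 other Wnt pathway genes called higher, 1 point per library with a line at the mean. Axin2, Notum and Tcf7l1 sit near 1 CPM or below in EGFP and all 5 genes have their Zac1 libraries above their EGFP libraries.

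Some measures moved together with these genes. Zac1 libraries were deeper, which the thinned counts above take out. Transcript GC content had a median of 49.4% over all tested genes, 55.8% among those called higher, 54.7% among the 21 tested members and 57.9% among the 8 tested ligands. With offsets for GC content, Wnt6, Wnt10b and Wnt7b passed, and Fzd5 (0.25, adjusted p = 0.0679) and Wnt10a did not. Stellate cell and fibroblast markers summed to 0.466 to 1.01 CPM in EGFP and 2.12 to 2.77 CPM in Zac1, with Col1a1 holding most reads and Lrat and Dcn, 2 of the 8, at 0 in every library. Endothelial markers summed to 0.537 to 0.878 and 0.747 to 1.25 CPM, with Lyve1 and Clec4g, 2 of 7, at 0. The 6 neuron markers summed to 12.6 to 14.4 and 11.8 to 15.1 CPM (Tubb3 at 0), and the 6 macrophage and leukocyte markers to 1.96 to 2.48 and 1.88 to 2.56 CPM (Clec4f and Cd3e at 0). Within the last list Csf1r had 0 reads in EGFP and 7, 4 and 19 in Zac1, and Adgre1 had 0 in EGFP and 1, 1 and 0 in Zac1. The other markers of that list with reads averaged lower in Zac1: Ptprc went from 0.692 to 0.484 CPM and Cd68 from 1.52 to 1.09 CPM. The hepatocyte marker Ttr averaged 67.4 CPM in EGFP and 42.5 CPM in Zac1, with every Zac1 library below every EGFP library. The part of these markers and of GC content in the Wnt values beyond this was not tested.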

How the data were processed

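PolyA RNA-seq libraries of AML12 cells were analysed, 3 per group, from 1 deposited table of read counts per gene. FastQC, STAR, HTSeq and DESeq2 are listed in the submitters' processing notes, without versions or settings; the genome build and the annotation: not given in the sources used here. The deposited values are called normalized, but they behave as unscaled counts: they are whole, totals differ between libraries, and each library holds every value between 1 and 40. Library totals ran from 14801240 to 18302538. Per the labels, a directional kit was used; no source says if reads were counted by strand.

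Symbols were matched for 49326 of 49585 gene IDs through GENCODE M21 (GRCm38), which also gave positions, exon lengths and transcript GC. The 12130 genes whose count averaged 10 or more were fitted with edgeR 4.0.16 in R 4.3.3 (TMM, glmQLFit and glmQLFTest, prior count 0.125, two-sided) and adjusted by Benjamini-Hochberg over all of them, threshold 0.05. SE is the log2 fold change divided by the square root of F. CPM uses TMM-scaled library sizes. Ratios of summed reads carry exact 95% intervals, and groups at 0 a floor of 3 reads; both cover counting error only. No 2 libraries of a group agreed within sampling noise (chi-square per degree of freedom 2.31 to 8.98).

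The members and lists were chosen with earlier results of these data known. The members past the threshold, or tested with no overlap between groups, are described by library; the others by range. From each list up to 4 called genes are named, or the smallest p where none passed; other pathway genes were named after their values were seen. Alternatives were DESeq2 1.42.0, limma 3.58.1 (log2(CPM + 1), and voom with quality weights), other scalings and filters, GC offsets (loess span 0.5), thinning and leaving out libraries; unscaled counts were added after seeing the data.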

Additional observations from a re-analysis of the deposited data

How the results depend on the processing

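Wnt7b kept its direction and its call in all 17 alternatives. Wnt6 and Wnt10b passed wherever they were tested (16 and 15 alternatives), but their Zac1 reads alone brought them over the count minimum, so this says nothing of stability. Members called higher numbered 4 of 21 tested, and 13 of 21 on unscaled counts. They were 9 of 34 with no filter on low counts, and 1 of 18 when the minimum was a mean of 50 reads (fewer genes tested). Without EGFP 1 and Zac1 4 together they were 8 of 21, and with voom and quality weights 7 of 21. With a single library left out they were 2 to 6 (2 without Zac1 5, 6 without Zac1 4). In all these settings 0 members were lower. The fits with no filter and without EGFP 1 and Zac1 4 shared the variance almost wholly over genes, so their p-values are no firmer; the no-filter fit also called Wnt11 (adjusted p = 0.0021), Wnt2b (0.00537) and Wnt9b (0.0241). Over all genes, 378 higher and 81 lower of 12130 tested became 3365 and 23 on unscaled counts, whose median log2 fold change is 0.20. With no filter they became 731 and 248 of 21764, and under that higher minimum 190 and 51 of 10340. Without EGFP 1 and Zac1 4 they were 853 and 608, and with voom 797 and 500. With a single library left out, 187 to 584 were higher and 19 to 379 lower (fewest without Zac1 5, most without Zac1 4). Other Wnt pathway genes called higher (5 of 69 tested) were 24 of 69, 9 of 95 and 3 of 57 under the first 3 of these settings. With a library left out they were 3 to 5 (3 without Zac1 6). Of these genes 1, Csnk1g3, was lower with voom, and the same gene was lower without EGFP 1 and Zac1 4. Apart from fewer genes tested or other scaling, the cause was not tested. Per kilobase, Wnt10a held 51% (EGFP) and 50.9% (Zac1) of ligand reads and Fzd5 31% and 32.4% of Frizzled reads. Members below the minimum read in Zac1 only were 6, 6 after thinning, and 6 to 8 with a library left out. How common this pattern is among all genes below the minimum was not counted, so nothing is read from these numbers. Signs turned only for members that passed in none of the settings concerned: Fzd7 (-0.065 without Zac1 6, with a leave-one-out range of -0.065 to 0.133, and -0.0019 with voom), Lrp6 (0.0038 with upper-quartile scaling, 0.0209 without EGFP 1, 0.0104 without Zac1 6, a leave-one-out range of -0.0453 to 0.0209, 0.0038 without EGFP 1 and Zac1 4, 0.0142 with GC offsets), Porcn (0.0016 without EGFP 2, range -0.188 to 0.0016), Wls (0.0172 with GC offsets), and on unscaled counts Fzd8 (0.10), Lrp6 (0.19), Porcn (0.11), Ryk (0.18), Wls (0.16) and Wnt4 (0.15). No paired analysis was possible because the groups share no replicate number. Depth limits the members with under 10 reads a group, where a few reads set the ratio.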

Other observations

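Further Wnt pathway genes lay below the count minimum and were picked out here after their values were seen. Kremen2, a receptor for Dickkopf proteins, had 0 reads in EGFP and 9, 9 and 22 in Zac1. Pygo1, a nuclear partner of beta-catenin, had 0 reads in EGFP and 4, 6 and 4 in Zac1. Zcchc12, a zinc-finger co-activator on the feedback target list, had 0, 1 and 0 reads in EGFP and 5, 13 and 7 in Zac1. Dkk2, a secreted antagonist of Lrp5 and Lrp6, had 2 reads in each EGFP library and 6, 6 and 7 in Zac1. For these 4 genes each Zac1 library was above each EGFP library. Frzb, Rspo1, Lgr5, Lef1 and Ptk7, also listed and below the minimum, likewise had each Zac1 library above each EGFP library. The remaining listed genes below the minimum overlapped between the groups or had no read. Among those that overlapped were Sfrp1, Trabd2b, Prickle2, Nfatc4 and Cyp1a2. The share of all genes below the minimum without overlap was not counted.

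The nearest protein-coding genes around the called ligands were looked up by position. Ddn, which encodes the synaptic protein dendrin, lies 9.94 kb beyond Wnt1 and 25.6 kb from Wnt10b on chromosome 15. It had 0 reads in EGFP and 20, 22 and 26 in Zac1, at least 19.7-fold higher. It too reached the count minimum only through its Zac1 reads and so had to differ. On the other side of Wnt10b, 7.5 kb away, Arf3 averaged 204 CPM in the EGFP libraries (SD 0.708) and 208 CPM in those of Zac1 (SD 0.939; edgeR adjusted p = 0.801). Near Wnt6, Prkag3 (22.7 kb away) had a log2 fold change of -0.17 (adjusted p = 0.868), and Cdk5r2, on the far side of Wnt10a, had no read in any library. Near Wnt7b, Ppara (153 kb away) was at 11.7 and 15.2 CPM on average, and its difference did not pass (0.37 on the log2 scale, adjusted p = 0.117).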
